A study of Mus musculus with 15 samples.

Results

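The ordered dose trend asked, for each gene, whether its level in mouse blood moved step by step from vehicle through a low to a high dose of ABBV-075. It also asked how much of the movement was already there at the low dose. All 15 arrays of the 15 in the series entered it, 5 per group, scored by the dose in their titles as 0 for vehicle, 1 for 1 mg/kg and 2 for 5 mg/kg. Whole blood was taken 6 h after dosing from mice that had received vehicle or ABBV-075 (mivebresib, a small molecule inhibitor of BET bromodomains), and total RNA was read on Affymetrix 3' expression arrays. The series' design text gives 5 mice to each group. The strain, sex and age of the mice, the vehicle and the route are not in the sources used here. Every treated group received the same compound and was sampled at 1 time, so the data hold no time course and no inactive compound.

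BET proteins, such as Brd2 and Brd3, bind acetylated lysines on histone tails through paired bromodomains and help bring the elongation factor P-TEFb to promoters and enhancers. An inhibitor that occupies the bromodomains displaces them from chromatin. Such compounds are known to lower inflammatory transcripts and to raise Hexim1, Sertad1 and several histone genes.

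Values are log2 intensities after quantile normalisation, with every intensity under 16 set to 16, so that 4.00 is the floor and not a measured level. A gene was tested where its probe set lay above the floor on at least 5 arrays, which held for 12499 of 18193 genes. 52.7% of all probe set values lay at the floor. The slope is the fitted log2 change per dose score, so the change from vehicle to 5 mg/kg spans a score of 2. The first step is the 1 mg/kg mean minus the vehicle mean, and the second step is the 5 mg/kg mean minus the 1 mg/kg mean. The share is the part of the whole change that was reached at 1 mg/kg. A share under 25% is called late, 25% to 75% graded, over 75% to 125% saturated and over 125% past the 5 mg/kg level, as a description of the means without a test. With 5 arrays in each group the slope rests on the vehicle and 5 mg/kg means alone. The 1 mg/kg arrays enter only its error, so the test favours genes whose 1 mg/kg mean lies near the straight line. The number of arrays limits the precision, and the median standard error of a slope was 0.15.

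The arrays were uneven before scaling, with medians of the deposited intensity between 3.61 and 25.4, both of them in the 1 mg/kg group. The array median had no dose slope (exact permutation test over 756756 arrangements, two-sided, p = 0.806), and neither had the 3' minus 5' signal of Actb, a measure of RNA integrity (p = 0.402). The signal of the 18S rRNA control probe sets did: vehicle arrays had a log2 mean of 11.19 ± 0.94, low-dose arrays 9.97 ± 0.43 and high-dose arrays 9.42 ± 0.42 (SD, 5 arrays each; exact permutation test p = 0.000296, adjusted over the 3 measures 0.000888). With 18S as a covariate, limma left 0 genes with a slope past an adjusted p of 0.05 and 1117 at an unadjusted p under 0.05. The slopes of the 10 genes called without it were then 79.9% to 111% of their size, with adjusted p of 0.394 to 0.404 in limma, and the median gene's standard error was 1.59 times as large. The part of the 18S signal in the slopes below was not tested. Markers of red cells, platelets and white cells were measured on these arrays: 11 of 11 matched erythroid genes, 12 of 12 platelet genes, 16 of 16 B cell genes and 17 of 17 monocyte genes were tested.

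Across the tested genes, limma's slope test called 10 genes at a Benjamini-Hochberg adjusted p under 0.05, 0.08% of those tested. Of these, 3 rose with dose (0.024%), namely Sertad1, H2ax and Brd2. The other 7 fell (0.056%), namely Ear3, Clec4a3, Ptpro, Mpeg1, Dpagt1, Pla2g7 and Ccr1. At an unadjusted p under 0.05 there were 936 genes (7.49%), 418 rising (3.34%) and 518 falling (4.14%). The F test for any difference between the 3 groups called 9 genes (0.072%), 8 of them shared with the slope test, and 1003 had an unadjusted p under 0.05 (8.02%). Slc25a24 was called by the F test only, and Brd2 and Ccr1 by the slope test only. The test of curvature, the departure of the 1 mg/kg mean from the straight line, called 0 genes (0%) with a lowest adjusted p of 0.746 in limma, and 831 at an unadjusted p under 0.05 (6.65%). By their means, 9 of the 10 genes with a slope were graded and 1, Ear3, was saturated, but the slope test favours graded genes. Of the 9 genes called by the F test, which favours no shape, 7 were graded and 2, Ear3 and Slc25a24, were saturated. Without scaling between arrays 1 gene was called, 0 rising and 1 falling (Ear3). With the score set to the dose itself, 0, 1 and 5, 10 genes were called, 7 rising and 3 falling, and 5 were shared with the main score. Without the 2 vehicle arrays of highest 18S, 7 were called, with H2ax, Brd2, Pla2g7 and Ccr1 no longer among them.

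The stretch just upstream of the start site is shown for 2 risers and 2 fallers, to let the letters of both kinds be seen side by side. Of the 10 genes, 7 were matched by symbol in the RefSeq promoter table of GRCm38.p6. Each line gives the 250 bases before the most upstream listed start, 5′ to 3′ on the gene's own strand, with every CG dinucleotide in capitals. Sertad1 lies at chr7:27486703-27486952 on the + strand, Brd2 at chr17:34122608-34122857 on the - strand, Mpeg1 at chr19:12460520-12460769 on the + strand and Ccr1 at chr9:123968693-123968942 on the - strand.
Sertad1: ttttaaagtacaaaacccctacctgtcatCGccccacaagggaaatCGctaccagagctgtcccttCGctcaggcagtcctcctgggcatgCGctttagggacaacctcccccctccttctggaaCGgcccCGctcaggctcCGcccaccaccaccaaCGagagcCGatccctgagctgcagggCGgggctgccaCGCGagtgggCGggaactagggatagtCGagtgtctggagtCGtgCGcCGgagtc
Brd2: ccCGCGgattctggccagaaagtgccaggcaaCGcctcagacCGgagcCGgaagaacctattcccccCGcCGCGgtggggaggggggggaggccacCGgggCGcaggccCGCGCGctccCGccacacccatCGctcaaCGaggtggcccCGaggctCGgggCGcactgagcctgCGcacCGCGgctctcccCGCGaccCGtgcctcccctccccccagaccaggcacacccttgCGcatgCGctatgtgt
Mpeg1: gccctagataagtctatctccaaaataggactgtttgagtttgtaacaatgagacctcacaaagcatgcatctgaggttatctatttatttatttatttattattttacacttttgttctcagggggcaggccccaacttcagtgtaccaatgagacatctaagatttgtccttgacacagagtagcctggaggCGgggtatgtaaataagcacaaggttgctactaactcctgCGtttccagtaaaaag
Ccr1: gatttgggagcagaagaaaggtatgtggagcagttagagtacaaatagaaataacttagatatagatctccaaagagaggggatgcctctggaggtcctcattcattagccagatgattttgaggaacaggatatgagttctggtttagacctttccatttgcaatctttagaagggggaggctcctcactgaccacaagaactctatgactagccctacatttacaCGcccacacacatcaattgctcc
The Sertad1 stretch held 17 CG dinucleotides and 62.8% G or C, and the Brd2 stretch 27 and 73.6%. Mpeg1 held 2 CG with 40% G or C, and Ccr1 held 1 CG with 43.6%. Of the other fallers, Clec4a3 held 4 CG, Ptpro 3 and Pla2g7 14. The median over 27025 promoters of the same length, 1 start a gene, was 6 CG and 52.0% G or C. The letters GGGCGG, the core bound by Sp factors, searched on both strands, were found 3 times before Sertad1, 1 time before Pla2g7 and 0 times in the other 5, while 33% of all these promoters held it. These are descriptions of 7 genes and carry no test.

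**Figure D1:**
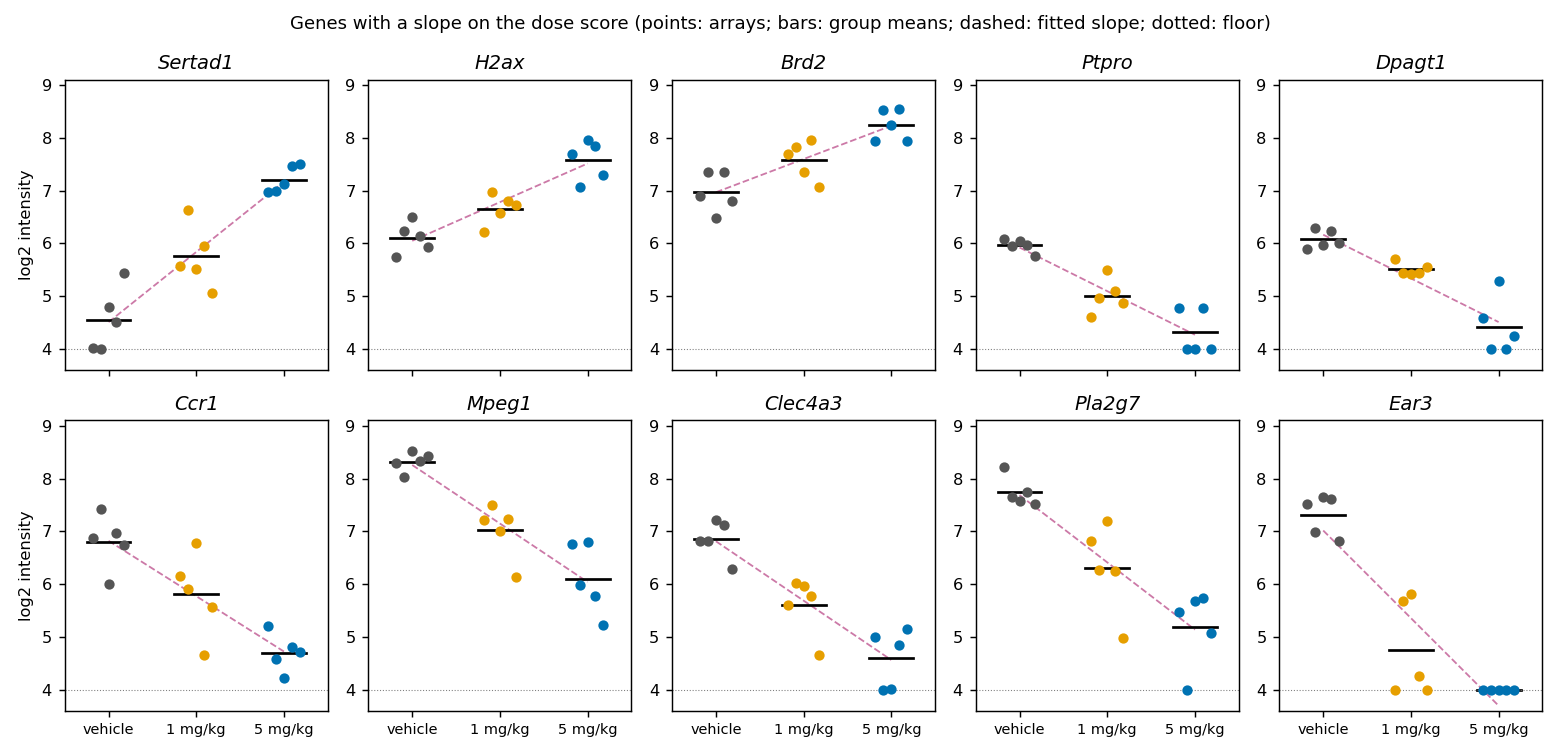
Log2 intensity (vertical axis) on every array for the 10 genes with a slope, by dose group (horizontal axis: vehicle, 1 mg/kg, 5 mg/kg); points are arrays, bars are group means (n = 5), the dashed line is the fitted slope and the dotted line the floor at 4.00. In all 10 genes with a slope the 5 mg/kg arrays lie wholly on one side of the vehicle arrays, and in Dpagt1 alone do all 3 groups keep apart.

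Sertad1, a transcriptional coregulator that binds CDK4 and E2F partners, had the steepest rise. Its log2 intensity was 4.02, 4.00, 4.79, 4.51 and 5.44 with vehicle, 5.58, 6.64, 5.52, 5.96 and 5.07 at 1 mg/kg, and 6.96, 7.00, 7.12, 7.46 and 7.50 at 5 mg/kg. All 5 mg/kg arrays lay above all others, and 1 array at 1 mg/kg lay below the highest vehicle array. The slope was 1.33 ± 0.15 (SE) per score (limma, adjusted p = 0.00123), a 6.31-fold rise in all, with 2.30-fold reached at 1 mg/kg. The steps of 1.20 ± 0.31 and 1.45 ± 0.31 (SE) put 45.3% of the log2 change at the low dose, with a Fieller 95% interval of 23.0% to 67.0%. One vehicle array was at the floor, which can only shrink this rise.

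H2ax, the histone H2A variant that is phosphorylated at DNA breaks, read 5.73, 6.24, 6.50, 6.15 and 5.93 with vehicle, 6.21, 6.96, 6.58, 6.81 and 6.72 at 1 mg/kg, and 7.70, 7.08, 7.96, 7.85 and 7.30 at 5 mg/kg. The 5 mg/kg arrays were the highest, while the 2 lower groups overlapped. Its slope was 0.73 ± 0.11 (limma, adjusted p = 0.00746) and its share 37.3% (6.0% to 65.6%).

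Brd2, itself a BET protein and a target of the compound, read 6.90, 7.35, 6.48, 7.36 and 6.80 with vehicle, 7.69, 7.82, 7.35, 7.97 and 7.07 at 1 mg/kg, and 7.94, 8.52, 8.25, 8.55 and 7.94 at 5 mg/kg. The 1 mg/kg group overlapped both of its neighbours. The slope of 0.63 ± 0.11 lay just inside the threshold (limma, adjusted p = 0.0479) with nearly equal steps of 0.60 and 0.66. It missed the threshold in 12 of the 15 fits that each left out 1 array, and both Brd2 and Ccr1 lost their calls more often than the other 8 genes. A second Brd2 probe set had the slope 0.65 ± 0.18 with steps of 1.15 and 0.15 and did not pass (limma, adjusted p = 0.244). The difference in steps between the probe sets was not tested.

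Among the fallers, Dpagt1, the enzyme that starts the lipid-linked sugar chain for N-glycosylation, was ordered without overlap. It read 5.90, 6.29, 5.96, 6.23 and 6.00 with vehicle, 5.71, 5.44, 5.43, 5.44 and 5.55 at 1 mg/kg, and 4.59, 4.00, 5.29, 4.00 and 4.24 at 5 mg/kg. No other tested gene had its 3 groups apart in falling order (1 gene, 0.008%), and 0 genes did in rising order (0%). Its slope was -0.83 ± 0.12 (limma, adjusted p = 0.00398). The steps were -0.56 ± 0.23 and -1.09 ± 0.23, a share of 34.1% (5.6% to 59.5%). As 2 of the 5 mg/kg arrays were at the floor, the second step is understated if anything.

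Clec4a3, a C-type lectin receptor of myeloid cells, read 6.81, 6.82, 7.21, 7.12 and 6.29 with vehicle, 5.61, 6.02, 5.96, 5.78 and 4.66 at 1 mg/kg, and 4.99, 4.00, 4.02, 4.85 and 5.15 at 5 mg/kg. Both dose groups lay below vehicle and overlapped each other in 1 low array at 1 mg/kg. The slope was -1.12 ± 0.15 (limma, adjusted p = 0.00248) with a share of 55.4%.

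Mpeg1, a pore-forming protein of macrophages and their relatives, read 8.30, 8.03, 8.51, 8.33 and 8.43 with vehicle, 7.21, 7.49, 7.01, 7.23 and 6.13 at 1 mg/kg, and 6.75, 5.98, 6.79, 5.78 and 5.22 at 5 mg/kg. Both dose groups lay below every vehicle array, and the same 1 mg/kg array as in Clec4a3 was the lowest of its group. The slope was -1.11 ± 0.15 (limma, adjusted p = 0.00301), with steps of -1.31 and -0.91.

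Pla2g7, the plasma platelet-activating factor acetylhydrolase made by monocytes and macrophages, read 8.22, 7.65, 7.58, 7.75 and 7.52 with vehicle, 6.82, 6.26, 7.19, 6.25 and 4.97 at 1 mg/kg, and 5.47, 4.00, 5.68, 5.74 and 5.08 at 5 mg/kg. The vehicle arrays stood clear of both dose groups, which overlapped. One 5 mg/kg array was at the floor, so the fall from vehicle to 5 mg/kg was at least 5.85-fold. The fall to 1 mg/kg was 2.72-fold (slope -1.27 ± 0.19, limma, adjusted p = 0.00604).

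Ccr1, a receptor for inflammatory CC chemokines, read 6.87, 7.42, 6.00, 6.97 and 6.74 with vehicle, 6.15, 5.91, 6.78, 4.65 and 5.56 at 1 mg/kg, and 5.20, 4.59, 4.22, 4.81 and 4.70 at 5 mg/kg. The middle group overlapped both ends and spread over more than 2 log2 units. The steps were -0.99 and -1.11 (slope -1.05 ± 0.17, limma, adjusted p = 0.0127). A dimmer Ccr1 probe set had the slope -0.10, and 2 of the 15 fits that left out 1 array lost the call.

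Ptpro, a receptor-type tyrosine phosphatase, read 6.08, 5.96, 6.05, 5.97 and 5.76 with vehicle, 4.60, 4.97, 5.49, 5.11 and 4.87 at 1 mg/kg, and 4.78, 4.00, 4.00, 4.78 and 4.00 at 5 mg/kg. The low dose separated fully from vehicle and the high dose did not separate fully from the low dose. The slope was -0.83 ± 0.11 (limma, adjusted p = 0.00248) and the share 57.9% (32.8% to 84.3%). With 3 of 5 arrays at the floor at 5 mg/kg, the share is an upper bound.

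Ear3, one of the eosinophil-associated ribonucleases, was the only gene with a slope that was saturated by its means. It read 7.53, 7.00, 7.64, 7.61 and 6.82 with vehicle, 4.00, 5.68, 5.82, 4.25 and 4.00 at 1 mg/kg, and 4.00 on all 5 arrays at 5 mg/kg. The whole fall was thus at least 9.97-fold, and 5.93-fold at 1 mg/kg was itself limited by 2 arrays at the floor. The slope was -1.66 ± 0.21 (limma, adjusted p = 0.00248), and its share of 77.4% (58.3% to 99.3%) shows how far the measured range was used up at the low dose, since the 5 mg/kg level is only a bound. The curvature had an unadjusted p of 0.00758 and an adjusted p of 0.746 in limma. Its probe set is of the kind that can match other transcripts, and the ribonuclease family has near-identical copies, so the reading cannot be assigned to Ear3 alone.

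Slc25a24, a mitochondrial carrier that exchanges ATP-Mg for phosphate, had its change in the first step by its means. It read 5.92, 5.58, 5.66, 5.93 and 5.53 with vehicle, 4.00, 4.44, 4.95, 4.79 and 4.38 at 1 mg/kg, and 4.85, 4.13, 4.69, 4.59 and 4.55 at 5 mg/kg. Both dose groups lay below every vehicle array, the 5 mg/kg range lay within the 1 mg/kg range, and the 4.00 at 1 mg/kg is the floor. The F test called it (limma, adjusted p = 0.0388) and the slope did not (adjusted p = 0.124). The F call was lost in 12 of the 15 fits that each left out 1 array, and held without 1 mg/kg replicates 1, 3 or 4. Its steps were -1.21 ± 0.21 and 0.05 ± 0.21, a share of 104% (70.5% to 156%). The second step had a 95% interval of -0.39 to 0.49, so a further fall of up to 0.39 was not excluded by the error.

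Seen over the 10 genes with a slope, the 5 mg/kg arrays were apart from vehicle in 10, against 2.57% of all tested genes. The 1 mg/kg arrays were apart from vehicle in 6, against 0.904% of all. The 5 mg/kg arrays were apart from the 1 mg/kg arrays in 3, Sertad1, H2ax and Dpagt1, against 1.16%. These genes were chosen by the same slopes, so nothing is read from these counts. The Fieller interval of the share lay above 0 and below 100% in all 10. It held 50%, the value of a straight line on the score, in 9, with Ear3 as the exception. The slope test favours genes near that line, so nothing is read from these interval counts either. Ear3 was at the floor on every 5 mg/kg array, so its interval describes the measured range and not the full fall.

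**Figure D2:**
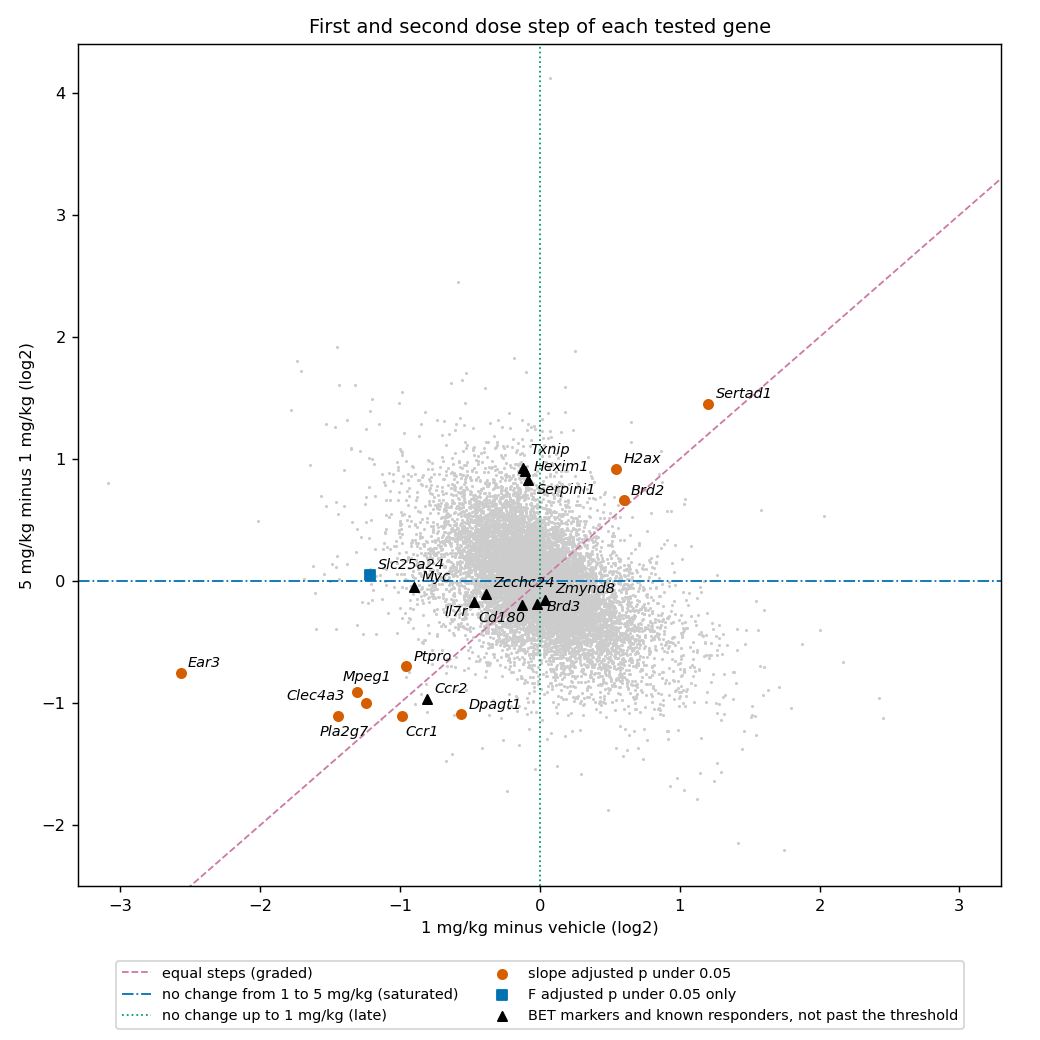
First dose step (horizontal axis, 1 mg/kg minus vehicle, log2) against second dose step (vertical axis, 5 mg/kg minus 1 mg/kg, log2) for the 12499 tested genes, 1 grey point a gene. The 1 mg/kg mean enters both axes with opposite sign, so the grey cloud slopes downwards by construction; Sertad1, H2ax and Brd2 lie near the line of equal steps at the upper right, most fallers near it at the lower left, and Slc25a24 on the line of no second step.

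The markers of BET inhibition and known responders that were followed whether or not they passed had varied shapes. Hexim1, the inhibitor of P-TEFb whose rise is used as a marker of BET inhibition, had steps of -0.11 and 0.90 on its brightest probe set (slope 0.39, limma, adjusted p = 0.558). It read 7.60, 7.30, 7.90, 7.79 and 7.84 with vehicle, 6.68, 8.10, 7.34, 8.05 and 7.71 at 1 mg/kg, and 7.95, 9.25, 8.74, 8.32 and 8.11 at 5 mg/kg. Every 5 mg/kg array was above every vehicle array, and the 1 mg/kg arrays spread around the vehicle level. A second Hexim1 probe set had a slope of 0.93 (adjusted p = 0.0197 in limma when each probe set was tested on its own), with steps of 0.52 and 1.34. On both probe sets the larger step came between 1 and 5 mg/kg.

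Txnip, an inhibitor of thioredoxin, had steps of -0.12 and 0.93, and Serpini1, a serine protease inhibitor, -0.08 and 0.83. Neither slope passed (limma, adjusted p = 0.420 for Txnip and 0.568 for Serpini1). A second Txnip probe set had a slope of 0.83 with steps of 0.24 and 1.41 and did not pass either (limma, adjusted p = 0.116). Serpini1 lay above the floor on 1 of 5 vehicle, 1 of 5 low-dose and 4 of 5 high-dose arrays, so its level was barely measured. Myc, the transcription factor often lowered by these compounds, had steps of -0.90 and -0.05 and was above the floor on 5, 2 and 2 arrays, so its low-dose and high-dose levels are mostly bounds. Ccr2, the receptor that guides inflammatory monocytes, had steps of -0.80 and -0.97 on its brightest probe set (slope -0.88, limma, adjusted p = 0.0889). A second Ccr2 probe set passed on its own with a slope of -1.31 (limma, adjusted p = 0.0011) and steps of -1.58 and -1.03, and another had a slope of 0.09 with steps of 0.31 and -0.14 (limma, adjusted p = 0.976). The other markers had slopes of -0.32 for Il7r, -0.25 for Zcchc24, -0.16 for Cd180, -0.10 for Brd3 and -0.06 for Zmynd8, none past the threshold. Other probe sets of Zmynd8 had slopes of -0.54, -0.24 and -0.17, and those of Brd3 0.15 and -0.12, none past it either. Of the 16 tested genes listed as responders in other studies, 7 had a positive slope (46.6% of all genes) and 9 a negative one (53.4%). Sertad1 and Ccr1 were called. At an unadjusted p under 0.05, 4 of the 16 had a rising slope (3.34% of all genes) and 5 a falling one (4.14%). The sign of Brd3 turned when its probe sets were averaged and that of Zmynd8 turned without scaling.

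With the adjusted p raised to 0.1, 20 genes had a slope (0.16%), 5 rising (0.04%) and 15 falling (0.12%). The 10 beyond the threshold were H2aw and Setd2 with rising slopes, and Hfe, Plbd1, Clec7a, Elk3, Timd4, Smpdl3a, Fpr2 and Ccr2 with falling ones. Hfe, Plbd1, Setd2, Elk3, Timd4 and Smpdl3a are named here after their values were seen. H2aw, another H2A histone, had steps of 0.36 and 0.90, and Setd2, the histone H3 lysine 36 methyltransferase, 0.25 and 0.86. Clec7a, the beta-glucan receptor dectin-1, had steps of -1.27 and -0.44, Elk3 -1.17 and -0.43, and Smpdl3a -1.02 and -0.42. Both risers had the larger second step, and 5 of the 8 fallers had the larger first step; the other fallers, Hfe, Timd4 and Ccr2, had the larger second step.

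The wider set was described in the same way. Among the 418 genes with a rising slope at an unadjusted p under 0.05, the median share reached at 1 mg/kg was 28.6%, with 198 late (47.4%), 166 graded (39.7%), 52 saturated (12.4%) and 2 past the 5 mg/kg level. Among the 518 falling genes the median share was 57.7%, with 83 late (16%), 267 graded (51.5%), 154 saturated (29.7%) and 14 past. The difference in medians was 29.1 percentage points. It ran from 11.4, with 18S as a covariate, to 54.8, with a floor of 64, and kept its sign in all 29 alternatives and array removals. With floors of 8, 32 and 64 the rising median was 34.0%, 22.5% and 14.1%. The falling median was 55.4%, 61.0% and 68.8% in the same order. A faller that reaches the floor at 1 mg/kg cannot be read as falling further. The part of the floor in the difference was not tested. Chosen by the F test instead, the median share was -3.1% in 505 rising genes and 67.7% in 498 falling ones. Genes are not independent replicates, all of them share the same 5 low-dose arrays, and the difference carries no test.

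**Figure D3:**
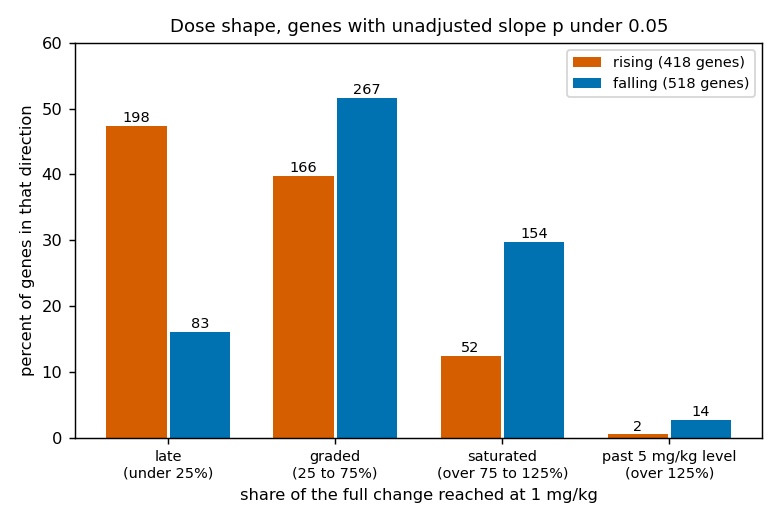
Percent of genes (vertical axis) in each class of dose shape (horizontal axis, by the share of the full change reached at 1 mg/kg), for the 418 rising and 518 falling genes with an unadjusted slope p under 0.05; numbers above bars are genes. The late class holds 47.4% of the risers and 16% of the fallers.

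The gene lists are described by counts and medians beside those of all tested genes, whose median first step was -0.02 and median second step -0.02. A first step below 0 was seen in 53% of all genes, a second step above 0 in 47.7%, and both steps of the same sign in 32.3%. A positive slope was seen in 46.6% and a negative one in 53.4%. At an unadjusted p under 0.05, 3.34% of all genes had a rising and 4.14% a falling slope, and these shares are the background for the counts below. The ranges of list medians come from the 15 fits that each left out 1 array, an alternative chosen after seeing the data. Blood was measured in bulk, so fewer cells of a type and less RNA per cell cannot be told apart in any of these lists. Of histone genes, 10 of 11 had a positive slope (46.6% of all genes), 1 was called and 5 had an unadjusted p under 0.05, all rising (3.34% of all). Their median steps were 0.33 and 0.53, with 6 of 11 above 0 in the first step, 8 in the second and 5 with both steps of one sign. The first median ranged from 0.13 (without vehicle replicate 3) to 0.35 and was 0.18 without 1 mg/kg replicate 1, and the second ranged from 0.42 to 0.62. H3f3a, which encodes the replacement histone H3.3, had steps of 0.35 and 0.68. BET proteins and P-TEFb parts had medians of -0.02 and 0.18 over 21 genes, with Brd2 the one gene called.

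Monocyte markers had a negative slope in 16 of 17 genes (53.4% of all genes), 8 of them at an unadjusted p under 0.05 (4.14% of all) and none past the adjusted threshold. Their median steps were -0.53 and -0.20, the second turning to 0.0019 without scaling between arrays. Leaving out 1 array, the first ranged from -0.59 to -0.39 and the second from -0.27 to -0.07 (without 1 mg/kg replicate 1). Adgre1, the F4/80 antigen, had equal steps of -0.60 and -0.62, and Cd68, a lysosomal glycoprotein of macrophages, -1.46 and 0.12. Cybb, the phagocyte oxidase subunit, had steps of -0.60 and -0.28 on its brightest probe set. Its other probe sets had nearly equal steps, -0.45 and -0.48 on one, -0.35 and -0.36 on the other. The mean log2 level of the 17 markers was 7.03 to 7.48 on vehicle arrays, 6.37 to 6.99 at 1 mg/kg and 6.41 to 6.52 at 5 mg/kg. The vehicle arrays were above all treated arrays, and the 5 mg/kg range lay within the 1 mg/kg range. All 17 matched markers passed the filter on low values. These levels moved with the falls of Clec4a3, Mpeg1, Pla2g7 and Ccr1, genes that monocytes express, and their part in those falls was not tested.

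C-type lectin receptors had median steps of -0.48 and -0.32, with 9 of 11 slopes negative and Clec4a3 called. The second was -0.05 without 1 mg/kg replicate 1 and -0.12 without scaling, while the first ranged from -0.59 to -0.38 over the 15 fits. Clec4e, the receptor Mincle, had steps of -0.48 and -0.58 on its brightest probe set. Only 2 of its 5 arrays at 5 mg/kg were above the floor, so the second step is a bound. A second Clec4e probe set, tested on its own, had steps of -0.05 and -0.39 (limma, adjusted p = 0.742). Of 13 genes for platelet-activating factor and eicosanoid enzymes, 10 had a negative slope, with median steps of -0.17 and -0.40 and Pla2g7 called. Their steps rest on single arrays: without 1 mg/kg replicate 1 the medians were -0.39 and -0.0094, and over the 15 fits the first ranged from -0.44 (without 1 mg/kg replicate 3) to -0.13 and the second from -0.60 to -0.0094. Chemokine receptors had medians of -0.36 and -0.10, with 9 of 13 slopes negative and Ccr1 called; the second median was 0.06 without scaling and 0.11 without 5 mg/kg replicate 4. N-glycan assembly genes were split, 11 higher and 10 lower, with medians of 0.01 and -0.02 (the second 0.04 without scaling). Dpagt1 was the member called. Alg9, a mannosyltransferase of the same route, had steps of -0.57 and -0.37 on its brightest probe set without passing. A second Alg9 probe set went the other way, with a slope of 0.11 and steps of 0.04 and 0.18 (limma, adjusted p = 0.867). Lysosome genes had medians of -0.22 and -0.07, the second 0.11 without scaling. Without 1 mg/kg replicate 1 they were -0.06 and -0.14, so the larger step was then the second. Their member Hexa, a subunit of beta-hexosaminidase, had steps of -0.80 and -0.18.

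Of the eosinophil and basophil markers only 5 of 13 matched genes were tested, and 8 were at the floor too often. Ear3 is one of them. The mean level of the other 4 was 5.85 to 6.73 on vehicle arrays, 5.58 to 6.61 at 1 mg/kg and 5.49 to 6.32 at 5 mg/kg, and the 3 ranges overlapped. Of these 4, Gata2 and Prg2 had positive slopes. Prg2, the eosinophil major basic protein, had a slope of 0.08, and Alox15, a lipoxygenase, had -1.07 with an outlying array in the 5 mg/kg group. Gata1 had a slope of -0.34 with steps of -0.31 and -0.37, and every 5 mg/kg array lay below every vehicle array. At an unadjusted p under 0.05, 3 of the 5 tested genes had a falling slope, Ear3 among them (4.14% of all genes). The part of eosinophil number in the fall of Ear3 was not tested.

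Mature neutrophil, natural killer cell, dendritic cell and platelet lists had medians further below 0 in the first step than in the second, also in each of the 15 fits. Median steps were -0.55 and 0.18 for mature neutrophil markers, -0.51 and 0.16 for natural killer cell markers, -0.55 and 0.07 for dendritic cell markers, and -0.41 and 0.04 for platelet markers. The second medians of these 4 lists crossed 0 on leaving out 1 array, with lowest values of -0.05, -0.14, -0.0068 and -0.02. Immature neutrophil granule markers differed, with medians of 0.13 and -0.04 over 7 genes, the first turning to -0.03 without 1 mg/kg replicate 1. In the first step 10 of 10 natural killer cell genes and 12 of 12 platelet genes were below 0. Interferon-stimulated genes had medians of -0.39 and -0.13 with 14 of 17 slopes negative, the second 0.21 without 1 mg/kg replicate 4. None of these lists held a gene past limma's adjusted threshold. At an unadjusted p under 0.05 there were 3 neutrophil, 1 natural killer cell, 3 dendritic cell, 1 platelet and 5 interferon genes, all falling. Some lists share members, so these counts are not separate from those above. Clec4e and Clec4d are also in the C-type lectin list, and Ccr9 of the dendritic cell list is also a chemokine receptor.

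Lymphocyte and ribosomal lists had the opposite signs in the 2 steps. B cell markers had medians of -0.24 and 0.63, with 13 of 16 higher in the second step, among them Ms4a1 (CD20) with steps of 0.06 and 1.17 and the transcription factor Spib with 0.18 and 1.39. T cell markers had medians of -0.19 and 0.43, with 12 of 13 higher in the second step. Of 15 ribosomal protein genes, 14 were lower in the first step and 15 higher in the second, with medians of -0.18 and 0.45. Immediate-early genes had medians of -0.17 and 0.48. A positive slope was seen in 11 of 16 B cell, 9 of 13 T cell, 15 of 15 ribosomal and 15 of 19 immediate-early genes (46.6% of all genes). With arrays scaled by their 75th percentile, 13 of the 15 ribosomal genes had a positive slope. Ier5 had steps of 0.07 and 0.86 on its brightest probe set, and its other probe sets had slopes of -0.23 and 0.31. Klf4 of the same list fell, with steps of -0.72 and -0.02. No gene of these 4 lists had a slope past limma's adjusted threshold. At an unadjusted p under 0.05 2 B cell genes and 1 of 15 ribosomal genes had a rising slope (3.34% of all genes), T cell genes had 1 in each direction, and of 19 immediate-early genes 3 had a rising and 2 a falling slope. A list below 0 in the first step and above 0 in the second rests on the 1 mg/kg arrays in both. Over the 15 fits the first median ranged from -0.34 to -0.05 for B cells (highest without 1 mg/kg replicate 5), from -0.34 to -0.06 for T cells (highest without vehicle replicate 2), from -0.23 to -0.11 for ribosomal genes and from -0.21 to -0.06 for immediate-early genes. The second ranged from 0.38 to 0.74, from 0.32 to 0.58, from 0.35 to 0.50 and from 0.37 to 0.55 in the same order.

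**Figure D4:**
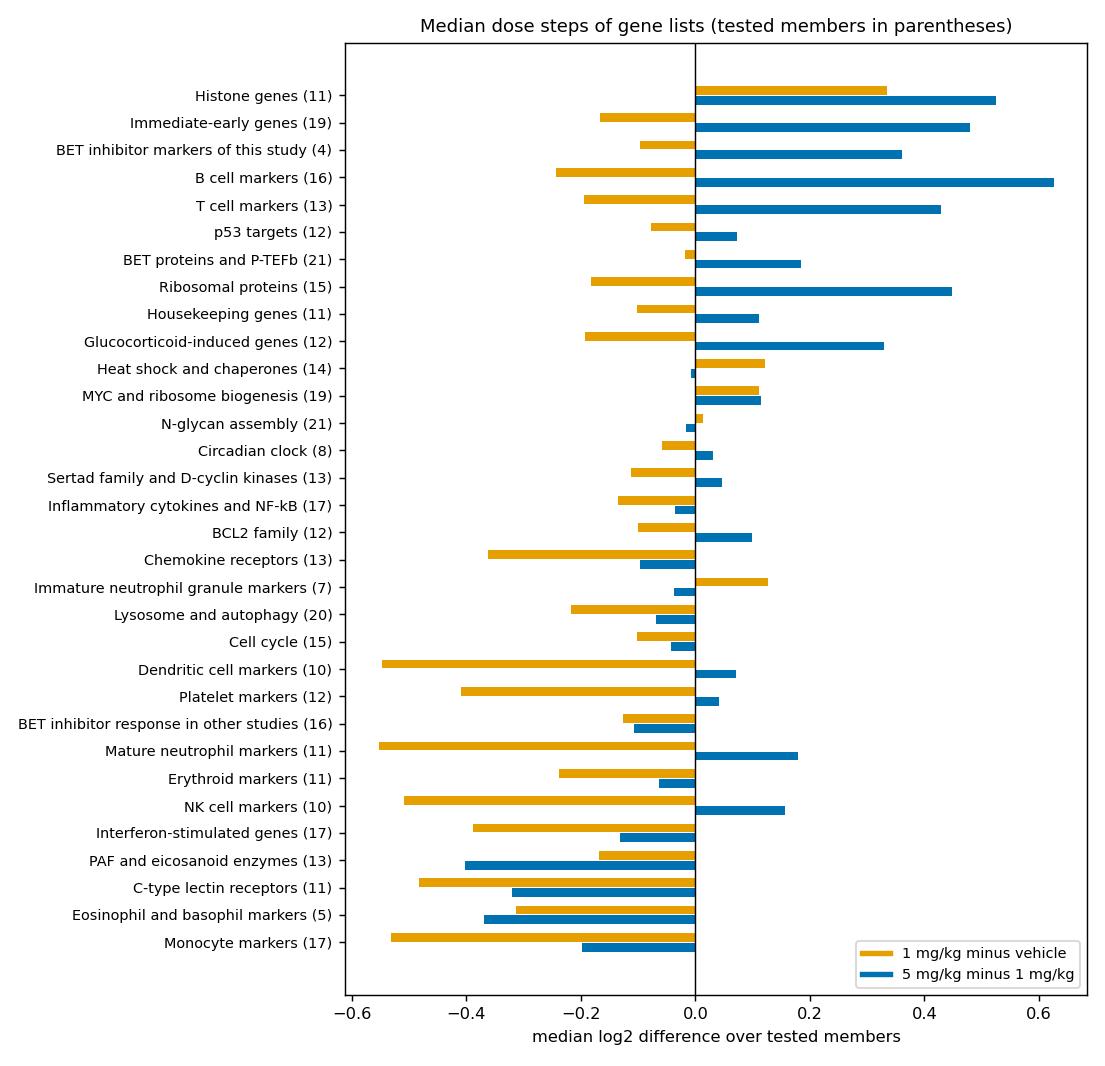
Median log2 difference over the tested members (horizontal axis) of each gene list (vertical axis, number tested in parentheses) for the first step (1 mg/kg minus vehicle) and the second step (5 mg/kg minus 1 mg/kg). Histone genes are above 0 in both steps, monocyte (but for their second step without scaling) and C-type lectin genes below 0 in both, and B cell, T cell and ribosomal genes below 0 in the first and above 0 in the second.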

How the data were processed

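Total RNA from whole blood (200 ng) was labelled by Affymetrix's 3' IVT method, per the labels' protocols. The deposited values are linear intensities per probe set, 1 column per array, as read from the values; the software, summarisation and scaling are not given in the sources used here. Of 45101 probe sets, 64 controls were left out. The rest were quantile normalised, floored at 16 and taken to log2. Probe sets naming 1 gene (34945) were used, not those naming several (932) or none (9160); a gene's brightest probe set stood for it. limma 3.58.1 in R 4.3.3 (lmFit, eBayes, two-sided) fitted the score 0, 1 and 2 (13 residual and 3.98 prior degrees of freedom), and the 3 group means for the F test and curvature (12 and 3.90). Adjustment was by Benjamini-Hochberg over all 12499 genes. The fits were checked on simulated data. Separate mice are given by the design text only. Replicate numbers did not pair the arrays.

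Genes were named by rule: those past the slope or F threshold, up to 4 of smallest slope p in each of 32 lists (525 genes, 459 matched, 398 tested), and a set of BET responders. Members, lists and rules were chosen with earlier results of these data known.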

Additional observations from a re-analysis of the deposited data

Results flagged for a closer look

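Of 183 sets of 5 arrays examined for the named genes, 14 held an array far from the other 4 of its group; chance flags about 1 in 20 such sets. No gene with a slope past the threshold was among them. In Serpini1, vehicle replicate 2 read 5.05 and 1 mg/kg replicate 3 read 4.64 while the others of their groups were at the floor of 4.00. In Cd27, a T cell costimulatory receptor, 1 mg/kg replicate 3 read 4.29 and 5 mg/kg replicate 5 read 4.31, both close to the floor. In Klf4, a monocyte transcription factor, 1 mg/kg replicate 3 read 5.89 against a nearest value of 5.30, and 5 mg/kg replicate 5 read 4.77 against 5.37.

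At 5 mg/kg, replicate 5 stood high in Myc at 4.80 and in Clec4e at 4.89. Replicate 1 of that group stood high in Gbp3, an interferon-induced GTPase, at 4.80, and in Alox15 at 7.47, where the nearest array read 4.91. In the 1 mg/kg group, replicate 5 stood low in Hfe, the iron regulator, at 4.85 and in Elk3 at the floor of 4.00. Among vehicle arrays, replicate 1 stood low in Fcgr4, an Fc receptor of monocytes, at 5.83, and replicate 2 stood high in Cd3g, a T cell receptor subunit, at 7.84.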

How the results depend on the processing

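The count of genes with a slope (10) became 1 without scaling between arrays (0 rising, 1 falling, Ear3; this setting moved the median slope of all genes from -0.01 to 0.05), 39 and 41 with floors of 32 and 64, 19 where 1 array above the floor was enough, 33 with probe sets averaged per gene, 20 with each probe set tested on its own, 73 with array weights and 0 with 18S as a covariate. Scored 0, 1, 1 (saturation at the low dose) it was 3, and scored 0, 0, 1 (late) it was 0. Scored 0, 1, 5 it was again 10 but with 7 rising and 3 falling, 5 of them shared. Leaving out 1 array gave 8 (without vehicle replicate 2) to 22 (without 1 mg/kg replicate 5), with 21 without 1 mg/kg replicate 1. In these 15 fits 8 of the 10 genes kept their calls; Brd2 lost its call in 12 and Ccr1 in 2. Leaving out the 2 vehicle arrays with most 18S signal, an alternative chosen after seeing the data, the slope count was 7, and H2ax, Pla2g7, Ccr1 and Brd2 lost their calls.

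The F test count (9) became 1 without scaling, 21 and 27 with floors of 32 and 64, 5 with log2(value + 16), 15 with averaged and 18 with separate probe sets, 0 with 18S as a covariate (limma), 2 without those 2 vehicle arrays and 2 to 11 leaving out 1 array. The curvature count (0) became 1 with a floor of 8, with log2(value + 16) and with averaged probe sets. The slope of Zmynd8 turned to 0.0028 without scaling and that of Brd3 to 0.016 with averaged probe sets. With the replicate number as a block the slope count was 9 and the F count 1; the numbers do not pair the arrays (correlation of deviations -0.28 to 0.35 for the same number, -0.37 to 0.39 for different ones). The cause of these changes was not tested.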

Other observations

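Chaperone genes, not described above, were mixed. Of 14 tested, 9 had a positive slope (46.6% of all genes), 4 at an unadjusted p under 0.05 (3.34% of all) and none past the adjusted threshold, with median steps of 0.12 and -0.01 (the second 0.06 without scaling between arrays, and 0.31 and -0.13 without 1 mg/kg replicate 1). On their brightest probe sets, Hsp90aa1, the inducible cytosolic Hsp90, had steps of 0.71 and 0.14, and Hspa5, the chaperone BiP of the endoplasmic reticulum, 0.53 and 0.52. The other Hspa5 probe sets had the larger step first, 0.65 and 0.15 on one, 0.65 and -0.16 on the other. Hspa1b, the inducible Hsp70, had 0.80 and -0.01, and its reading may include its near-identical copy. A second Hspa1b probe set had steps of 0.05 and 0.32. Genes of MYC function and ribosome assembly went both ways: 10 of 19 had a positive slope, near the 46.6% of all genes, among them Ncl (nucleolin) at 0.39 and Nop56 at 0.63, while Dkc1, the pseudouridine synthase dyskerin, had -0.37.

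Dpagt1, which fell with dose, and H2ax, which rose, are next to each other among protein-coding genes in the RefSeq annotation, 1 such pair among the 10 genes with a slope. It was noticed after the calls were known, and no test bears on it.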
